A study of Drosophila melanogaster with 3 samples.

Results

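Binding of the Hox protein abd-A was described at 10 genes of the ecdysone response, EcR, Eip74EF, Eip75B, Eip78C, Eip93F, ftz-f1, Hr3, Hr38, Hr39 and ImpL2, out of 13945 protein-coding genes on the main chromosome arms. The genes were chosen by name, as the ecdysone receptor and genes known to respond to the hormone. The rule uses no measured value, but earlier results of these data were known when the set was chosen. Chromatin came from whole Drosophila melanogaster embryos, 4 to 24 h old with males and females pooled, of a transgenic line that stably expresses abd-A with GFP at its C-terminus, and it was precipitated with an antibody to GFP after sonication to 200 to 800 bp. There were 3 biological replicates of this 1 group, and conditions could not be compared. The promoter that drives the transgene is not given in the sources used here. Each list averages over all cells and all ages of the embryo, so binding in a few cells and weak binding in many cannot be told apart. The embryo age comes from the sample source, since the entry for age is a number far too high for an embryo.

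Ecdysone is the steroid hormone of insects, and its pulses time embryonic morphogenesis, moulting and metamorphosis. The hormone binds EcR, a nuclear receptor that acts as a pair with usp, and the pair switches on a small set of early genes, many of which encode transcription factors that in turn control later genes. Several of the early genes are very long, with alternative starts far apart that give different protein forms. abd-A is a homeodomain protein that specifies the identity of abdominal segments.

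The window of a gene was its body with 2 kb on each side. A gene was called bound where the window held a summit of the list thresholded by the irreproducible discovery rate (IDR). The IDR measures how well peak ranks repeat between replicates. The IDR list held 8143 summits, and the list called on all replicates together (the pooled list) and each replicate list held 30000. At the starts of these genes, a summit nearest in both lists had the same rank in each, such as 2731 at EcR-RB. Pooled summits named below that are outside the IDR list ranked beyond 8143, from 8445 on. The lists are thus not separate evidence, and a place in the IDR list does not show a strong peak in every replicate. The ftz-f1 summit of rank 7644, for example, met a peak of rank 29498 in replicate 3. Read depth was unknown, since the lists carry no read counts, and each list ended at the same length. Strength is the authors' signal value of a peak divided by the median signal value of its list, and rank 1 is the strongest peak of a list. A control library was not analysed here, so called peaks may include nonspecific precipitation.

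The DNA under 6 of the bound summits is shown because it carries words that were more frequent at these genes than at all IDR summits, with 1 stretch that carries none of the words sought as a contrast. Each line gives 101 bases centred on a summit, in dm6 coordinates and 5′ to 3′ on the forward strand, read from the release 6 reference genome. None of the 6 stretches overlapped an annotated exon. Capitals mark CAAGGTCA, the recognition element of ftz-f1 and Hr39, and GAGAG, the core of the element bound by GAGA factor, or the reverse complements TGACCTTG and CTCTC.

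Eip74EF strongest (chr3L:17595953-17596053, + strand): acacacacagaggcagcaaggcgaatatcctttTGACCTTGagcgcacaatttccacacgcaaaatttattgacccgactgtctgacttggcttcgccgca
Eip75B intron downstream of the RG start (chr3L:18016509-18016609, + strand): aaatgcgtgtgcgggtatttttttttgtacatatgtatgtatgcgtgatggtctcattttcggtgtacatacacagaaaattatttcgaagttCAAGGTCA
Eip75B intron downstream of the RC start (chr3L:17994713-17994813, + strand): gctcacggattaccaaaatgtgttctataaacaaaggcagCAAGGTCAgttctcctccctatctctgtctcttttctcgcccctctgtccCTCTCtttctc
ftz-f1 strongest (chr3L:18771879-18771979, + strand): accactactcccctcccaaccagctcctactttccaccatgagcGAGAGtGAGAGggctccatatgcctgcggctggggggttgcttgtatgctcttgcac
Eip75B strongest (chr3L:17949322-17949422, + strand): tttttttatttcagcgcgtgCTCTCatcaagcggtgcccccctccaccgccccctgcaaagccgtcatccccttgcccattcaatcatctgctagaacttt
ImpL2 strongest (chr3L:4228342-4228442, + strand): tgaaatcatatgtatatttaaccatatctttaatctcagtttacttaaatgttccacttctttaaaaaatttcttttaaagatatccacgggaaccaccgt

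Every stretch with CAAGGTCA also holds AGGTCA, the core element that many nuclear receptors recognise, since the longer word contains the shorter one. The word CAAGGTCA was within 50 bp of 3 of the 75 summits at these genes, or 4.00%, against 12 of all 8143 IDR summits, or 0.147%. So 3 of the 12 such summits of the whole list lay in Eip74EF and Eip75B. The 3 summits were not among the strongest of the list, with ranks of 1762, 2204 and 4611. The ftz-f1 stretch holds GAGAG at 2 places, and the strongest Eip75B stretch holds it once, as CTCTC. The ImpL2 stretch, from the strongest peak of that gene, holds 27.7% G and C and none of the 9 patterns sought.

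Of the 10 genes, 9 were bound, and Eip93F was the exception. Over all protein-coding genes the share with an IDR summit in the window was 26.5%, but the ecdysone genes are long. The longest 10% of windows began at 18.6 kb, 9 of the 10 genes fell into it, and 8 of these 9 were bound. In that class 1072 of 1395 coding genes, or 76.8%, were bound, so the number of bound ecdysone genes was close to what long genes show. In the pooled list all 10 genes had a summit, against 37.8% of coding genes of any length, and the pooled share of the longest 10% was not taken.

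The number of summits differed widely between the genes. Their windows held 75 IDR summits in 550.7 kb, with a median of 5 per gene, against a median of 0 over all coding genes and of 2 over the longest 10%. The density was 1.36 summits per 10 kb, against 0.608 over the chromosome arms and 0.760 over the windows of the longest 10%. Eip75B alone supplied 26 summits, and the density over the other 9 genes was 1.13 per 10 kb. Among the genes the number of summits and the window length had a Spearman rho of 0.47 and a Pearson r of 0.77 (n = 10 genes, which share the same peak lists, given as a description).

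**Figure D1:**
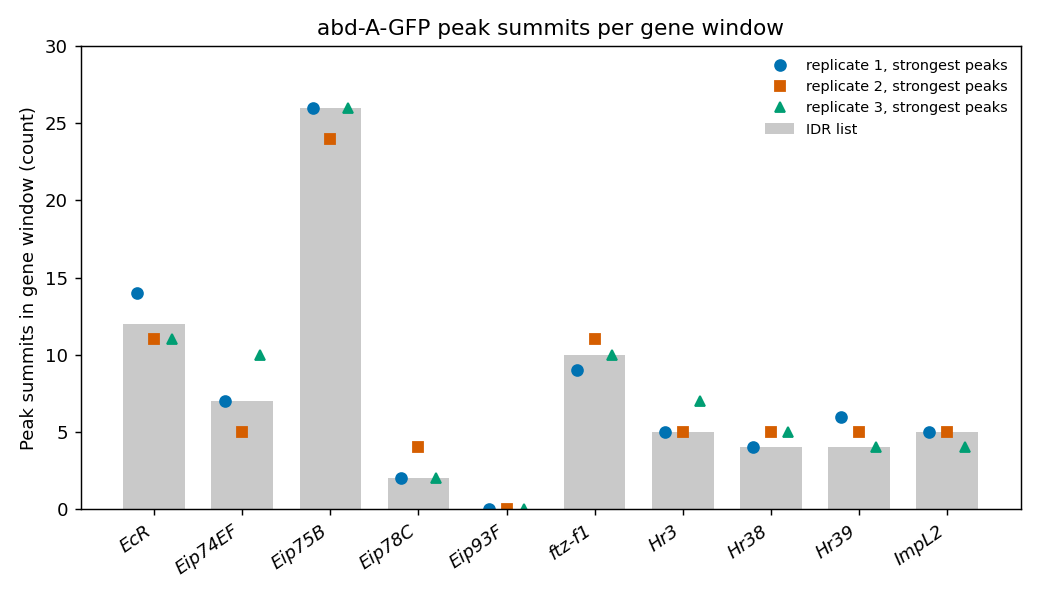
Number of abd-A-GFP peak summits (vertical axis) in the window of each gene (horizontal axis). Grey bars give the IDR list and coloured points the 8143 strongest peaks of each of the 3 replicates. Eip75B stands at 24 to 26 summits in every replicate, EcR at 11 to 14 and Eip93F at 0.

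The 3 replicates gave much the same numbers. Among the 8143 strongest peaks of each replicate, the 10 windows held 78, 75 and 79 summits in replicates 1, 2 and 3. For Eip75B the counts were 26, 24 and 26, for EcR 14, 11 and 11, and for ftz-f1 9, 11 and 10. Eip74EF varied most among the genes with many summits, with 7, 5 and 10, and Hr3 had 5, 5 and 7. Hr38 had 4, 5 and 5, Hr39 had 6, 5 and 4, and ImpL2 had 5, 5 and 4. Eip78C had 2, 4 and 2, and Eip93F had 0 in each replicate.

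**Figure D2:**
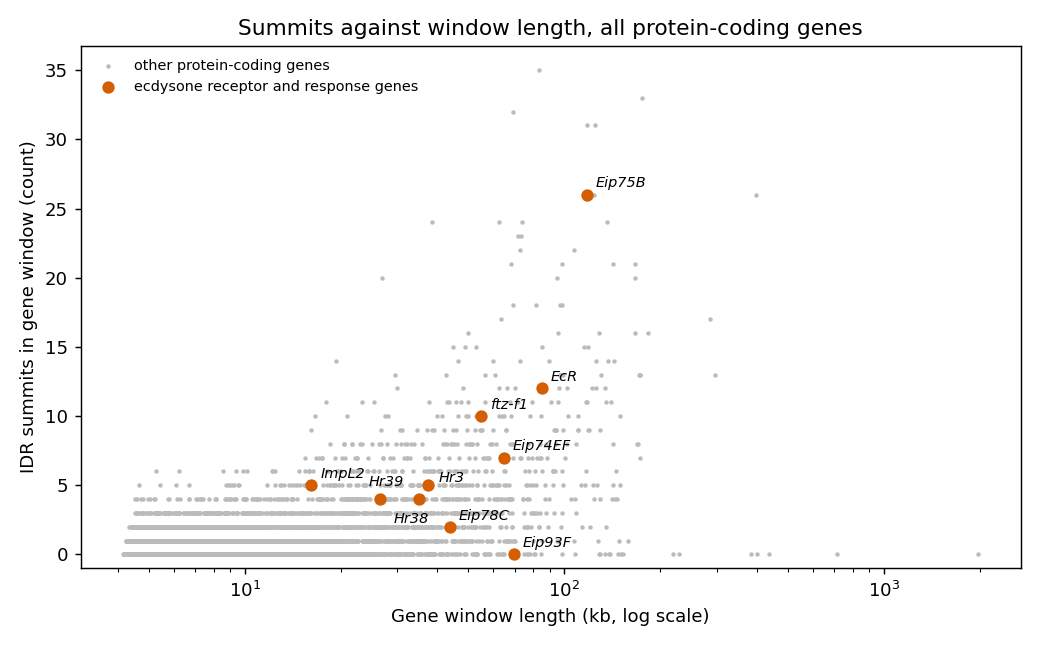
IDR summits in the window (vertical axis, count) against window length (horizontal axis, kb, log scale) for all 13945 protein-coding genes (grey) and the 10 ecdysone genes (orange). Eip75B, with 26 summits in 117.7 kb, lies near the top of the plot, and Eip93F, with 0 in 69.4 kb, lies at its base.

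The receptor gene EcR (FBgn0000546, 2R, bases 6087873 to 6169087, reverse strand) had 12 IDR summits and 28 pooled summits. At least as many IDR summits were found in 71 coding genes, itself included, and in 5.09% of the longest 10%. The gene has 4 distinct annotated starts. The most upstream, of transcript EcR-RA, was unbound, with the nearest IDR summit 19250 bp downstream. The next start, of EcR-RD and EcR-RE, had no IDR summit within 500 bp, but a pooled summit of rank 10865 lay 110 bp upstream of it, and each replicate list held a peak there, of rank 7713, 15092 and 20927. The starts of EcR-RB and EcR-RC and of EcR-RG, 81 bp apart, shared a single summit of rank 2731, at 98 and 179 bp upstream. Its strength was 2.67, 2.29 and 3.19 in replicates 1, 2 and 3. The peak was therefore among the 8143 strongest in each replicate, and EcR-RB, EcR-RC and EcR-RG were the starts of this gene that the IDR list marked.

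The strongest EcR peak lay in none of these places. It was in an intron, 7494 bp downstream of the start of EcR-RD and EcR-RE, and ranked 62 of the 8143 IDR summits, the highest rank of any summit at the 10 genes. Its strength was 10.8, 10.7 and 9.95 in replicates 1, 2 and 3, a mean of 10.5 ± 0.48 (SD, n = 3), and the values of the EcR start did not overlap with these. A second summit of rank 778 stood 202 bp away in the same interval. Between the start of EcR-RD and EcR-RE and that of EcR-RB and EcR-RC, 25.2 kb held 7 summits, and the 44.0 kb from the EcR-RG start to the end of the gene held 5. The first 12.0 kb of the gene held none. Of the 12 EcR summits, 3 were nearer to the start of CG14589, a coding gene inside the EcR body, than to any EcR start.

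Eip75B (FBgn0000568, 3L, bases 17950953 to 18064696, reverse strand) encodes an early-response nuclear receptor that binds haem and counters the activity of Hr3. Its 26 IDR summits placed it among the 8 coding genes with 26 or more, below sbb with 35, pum with 33, MSAmiP with 32, and Glut4EF and CG46467 with 31 each, and level with jing and kirre. The 3 coding genes nearest to it in window length, 117.7 kb, were sm, CG46467 and CG45263, with 11, 31 and 6 summits. So these 3 windows held from 6 to 31 summits, and Eip75B lay in the upper part of that range. CG46467 overlaps Glut4EF, so their counts may share summits.

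Of 7 annotated Eip75B starts, 3 were bound in the IDR list, all in the downstream part of the gene. The 3 most upstream starts, of Eip75B-RF, Eip75B-RE and Eip75B-RB, had no IDR or pooled summit within 500 bp, and the first IDR summit lay 34141 bp from the Eip75B-RF start. The Eip75B-RG start had only a pooled summit, 128 bp upstream, whose rank of 8445 was just beyond the end of the IDR list. The start of Eip75B-RC had a summit 114 bp downstream (rank 5375), with a strength of 1.43, 2.81 and 1.51 in replicates 1, 2 and 3. Only replicate 2 held that peak among its 8143 strongest. The start of Eip75B-RA had a summit 107 bp downstream (rank 464), with a strength of 6.41, 4.07 and 6.18, a mean of 5.56 ± 1.29 (SD, n = 3). The start of Eip75B-RD had a summit 342 bp upstream (rank 5088), and the nearest overlapping replicate peaks had a strength of 2.08, 2.94 and 1.48. Their summits lay 102, 26 and 282 bp from it in replicates 1, 2 and 3, so the value of replicate 3 may belong to another peak. In replicate 3 a peak of rank 6237 lay 24 bp downstream of this start. In each replicate the peak at the Eip75B-RA start was the strongest at any start of this gene.

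The summits were unevenly spread along Eip75B. The 9.63 kb from the Eip75B-RA start to the Eip75B-RD start held 8 summits, or 8.31 per 10 kb, and the 28.4 kb before it, from the Eip75B-RC start, held 7. The 33.6 kb between the Eip75B-RB and Eip75B-RG starts held 2, which lay 3741 and 4523 bp upstream of the Eip75B-RG start. The strongest peak of the gene, of rank 199, lay past its 3′ end, between genes. Its strength was 7.79, 6.40 and 8.08 in replicates 1, 2 and 3, with a mean of 7.43 ± 0.90 (SD, n = 3). It stood in the 2 kb beyond the gene together with 2 weaker summits, of ranks 5715 and 6717, and Eip75B is the gene whose start was nearest. A peak of rank 377 in the intron upstream of the Eip75B-RG start had a strength of 7.35, 4.48 and 6.15.

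Eip74EF (FBgn0000567, 3L, bases 17558672 to 17619325, reverse strand) encodes an ETS-domain transcription factor and is an early gene like Eip75B. It had 7 IDR summits, a number reached in 15.8% of the longest 10%, and none was near a start. Its 3 annotated starts had no IDR or pooled summit within 500 bp, and the nearest IDR summit was 2311 bp downstream of the most upstream start. The strongest peak, of rank 1762, carried the CAAGGTCA word shown above and lay in an intron, 23322 bp downstream of the first start. Its strength was 3.34, 3.93 and 2.85 in replicates 1, 2 and 3, a mean of 3.37 ± 0.54 (SD, n = 3). Among the 7 summits, 4 were overlapped by one of the 8143 strongest peaks in all 3 replicates. The summit of rank 6344 was nearer to the start of CycT, at 9227 bp, than to an Eip74EF start, at 9305 bp.

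Eip78C (FBgn0004865, 3L, bases 21226609 to 21266503, forward strand), which encodes a nuclear receptor related to Eip75B, had 2 IDR summits, of ranks 1525 and 2392, both in introns. As many or more were found in 60.8% of the longest 10%, so Eip78C had no more than a usual long gene. None of its 3 starts had an IDR or pooled summit within 500 bp, and the closest IDR summit was 11331 bp from the Eip78C-RB start. The stronger peak measured 3.69, 3.81 and 2.85 in replicates 1, 2 and 3. For both summits the nearest coding start was that of CG43218, a gene inside the Eip78C body, and not a start of Eip78C.

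Eip93F (FBgn0264490, 3R, bases 21949114 to 22014539, forward strand), which encodes a DNA-binding protein that acts in steroid-induced cell death and adult differentiation, had no IDR summit in a window of 69.4 kb. The pooled list held 2 weak overlapping peaks there, of rank 10027 and 14290, with a strength of 1.38 and 1.04. Both lay in an intron, 10365 and 10163 bp upstream of the start of Eip93F-RA and Eip93F-RC. The replicate lists held peaks at the same place, of rank 12724 in replicate 1, 14318 in replicate 2, and 14732 and 18087 in replicate 3. All of these had a strength close to the median of their list, from 0.844 to 1.14. Eip93F was thus among the genes of the longest 10% outside the 76.8% that were bound.

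**Figure D3:**
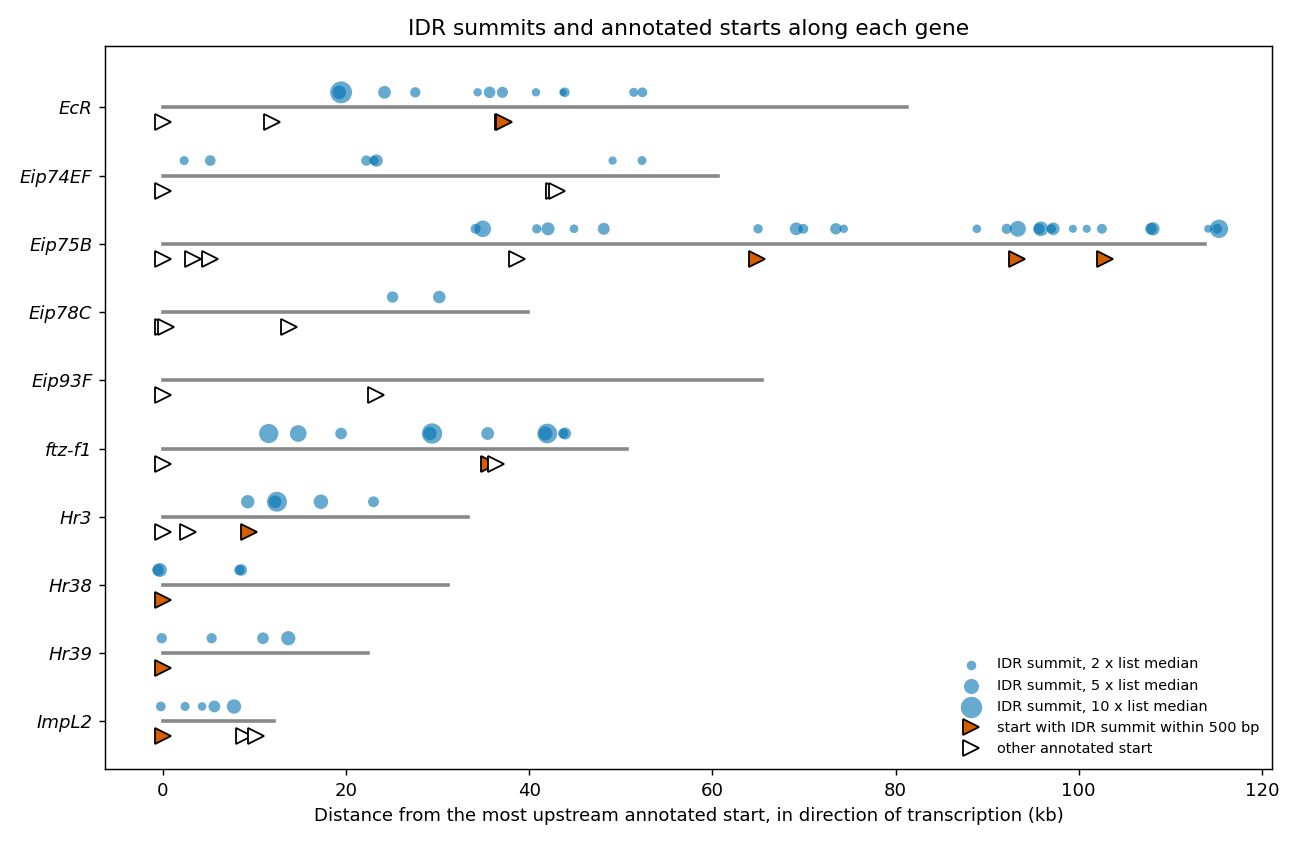
Position of IDR summits (blue circles, area by mean strength over 3 replicates) and annotated starts (triangles, orange where an IDR summit lies within 500 bp) along each gene, as distance in kb from the most upstream start in the direction of transcription (horizontal axis), with the gene body as a grey line. The first summit lies 34141 bp into Eip75B and 19250 bp into EcR, and the bound starts of both lie far downstream of the first.

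Hr3 (FBgn0000448, 2R, bases 10203995 to 10237348, reverse strand) encodes the nuclear receptor that carries the response from the early genes to ftz-f1. It had 5 IDR summits, a number reached in 26.5% of the longest 10%. Of its 3 starts, that of Hr3-RA, Hr3-RF and Hr3-RH was bound, by a summit of rank 1166 lying 137 bp upstream, with a strength of 4.16, 3.43 and 4.23 in replicates 1, 2 and 3. The start of Hr3-RC and Hr3-RI had a pooled summit of rank 11677 alone, and the most upstream start, of Hr3-RD, had none within 500 bp. The strongest peak, of rank 122, lay in an intron, 3054 bp downstream of the bound start, with a strength of 9.67, 7.98 and 8.44, a mean of 8.69 ± 0.87 (SD, n = 3). Coding genes CG12912 and CG46321 are annotated over the same stretch and share the starts of Hr3-RC and Hr3-RA, so the summits cannot be assigned to Hr3 alone.

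ftz-f1 (FBgn0001078, 3L, bases 18750607 to 18801309, reverse strand) encodes a nuclear receptor that makes tissues competent for the next hormone pulse, and an early embryonic form is a partner of the segmentation protein ftz. Its 10 IDR summits were matched or exceeded in 7.74% of the longest 10%. Of the 10 summits 4 were in the strongest 10% of the list, as were 4 of 26 at Eip75B and 2 of 5 at Hr3. The strongest, of rank 105, whose sequence is shown above, lay in an intron 6185 bp upstream of the start of ftz-f1-RC and ftz-f1-RD. Its strength was 9.14, 10.4 and 7.77 in replicates 1, 2 and 3, a mean of 9.09 ± 1.29 (SD, n = 3). A peak of rank 136, which lay 5613 bp downstream of the ftz-f1-RA start, had a strength of 9.21, 8.19 and 8.25. A peak of rank 148, which lay 11542 bp downstream of the ftz-f1-RB start, had a strength of 8.06, 8.02 and 8.29. The latter lies over the noncoding gene lncRNA:CR45939, as do 3 of the other ftz-f1 summits.

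Of the 3 ftz-f1 starts, that of ftz-f1-RC and ftz-f1-RD was bound, with a summit 106 bp upstream of rank 1477. Its strength was 3.50, 3.43 and 3.90 in replicates 1, 2 and 3. The ftz-f1-RA start, 788 bp further downstream, was 894 bp from the same summit and so was outside the limit of 500 bp. The most upstream start, of ftz-f1-RB, had no summit of the IDR or the pooled list within 500 bp. All 10 summits were overlapped by one of the 8143 strongest peaks of every replicate, but the weakest, of rank 7644, stood 206 bp from the summit of rank 136 and shared its peak in replicate 1.

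Hr39 (FBgn0261239, 2L, bases 21237250 to 21259675, forward strand), a nuclear receptor gene closely related to ftz-f1, had 4 IDR summits. Its single annotated start had a summit of rank 3718 at 139 bp upstream, with a strength of 2.35, 2.40 and 2.29 in replicates 1, 2 and 3. The strongest peak, of rank 762, lay in an intron 13682 bp downstream and measured 5.13, 4.70 and 3.61. That summit was nearer to the start of l(2)k14505 than to the Hr39 start.

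Hr38 (FBgn0014859, 2L, bases 20683462 to 20714588, reverse strand) encodes a nuclear receptor that can pair with usp in place of EcR. It also had 4 IDR summits, in 2 pairs, and was the 1 gene of the set whose strongest peak lay at a start. That peak, of rank 1107, was 343 bp upstream of the single annotated start, with a strength of 4.09, 3.78 and 4.99 in replicates 1, 2 and 3, a mean of 4.29 ± 0.63 (SD, n = 3). A further summit of rank 2094 stood 547 bp upstream. The other pair lay in an intron, 8346 and 8546 bp downstream of the start.

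ImpL2 (FBgn0001257, 3L, bases 4224006 to 4236147, reverse strand) encodes a secreted protein that binds insulin-like peptides and was first found as an ecdysone-inducible gene of imaginal discs. It is the shortest of the genes, and its 5 IDR summits in 16.1 kb gave the highest density, 3.10 per 10 kb. At least as dense were 550 coding genes, ImpL2 included. The most upstream start, of ImpL2-RA, was bound by a summit of rank 4502 at 240 bp upstream, with a strength of 2.37, 1.87 and 1.97 in replicates 1, 2 and 3. The starts of ImpL2-RB and ImpL2-RD and of ImpL2-RC had pooled summits alone, of rank 23037 and 12747. The other 4 IDR summits all lay in the 8.85 kb between the first and the next start. The strongest, of rank 857, measured 4.68, 4.53 and 4.35, a mean of 4.52 ± 0.165 (SD, n = 3).

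Taking the starts of all genes together, 10 of 30 distinct annotated starts had an IDR summit within 500 bp, against 12.4% of the 19607 distinct starts of coding genes. In the pooled list 15 of 30 had one, against 23.1%. Both comparisons are with starts of coding genes of any length, whereas 9 of the 10 genes are in the longest 10% of windows. No share was taken over starts of long genes alone, and an effect of gene length on these shares was not tested. The 10 IDR-bound starts were spread over 7 genes and rested on 9 summits, since the paired EcR starts shared one. Of the most upstream start of each gene, 3 of 10 were bound, those of Hr38, Hr39 and ImpL2. Of the downstream starts, 7 of 20 were bound in the IDR list and 12 of 20 in the pooled list. In EcR, Eip75B, ftz-f1 and Hr3, every bound start was a downstream one. The bound starts nearest to the limit of 500 bp were those of Eip75B-RD, at 342 bp, and Hr38, at 343 bp. The unbound ones nearest to it were those of ftz-f1-RA, at 894 bp, and of ImpL2-RB and ImpL2-RD, at 1090 bp.

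Most of the binding was in introns and away from starts. Of the 75 summits, 61 (81.3%) were in introns, 9 (12.0%) in promoters, defined as within 500 bp of a start, 4 (5.33%) between genes and 1 in an exon of a noncoding gene, and none was in a coding exon or a UTR. Over all IDR summits 46.3% were in introns, 27.5% in promoters and 22.7% between genes. The windows are made of gene bodies with short flanks, which by construction limits the intergenic share. Since 9 of the 10 genes are in the longest 10% of windows, the choice of genes also bears on the intron and promoter shares. No shares were taken over summits of other long genes. The median distance to the nearest start of the gene itself was 5312 bp, 42 summits were over 5 kb from one, and 66 were over 1 kb from a coding exon.

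The summits at these genes had a median rank of 2731, against 4072 for all IDR summits, and 13 of the 75 (17.3%) were in the strongest 10% of the list. The median width of the peak intervals was 476 bp in both sets. Many of the 75 summits lay in intervals of exactly this width, so the equal medians cannot show whether widths differed. Of the 75 summits, 16 shared their interval with another summit, against 980 of all 8143 IDR summits. In 13 cases neighbouring summits were less than 300 bp apart, at 200 to 283 bp, which is fewer bases than 1 median interval. The 75 summits formed 62 separate regions once overlapping intervals were joined. Over all IDR summits 845 neighbours were less than 300 bp apart, or 10.4% of the number of summits, against 17.3% at these genes.

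**Figure D4:**
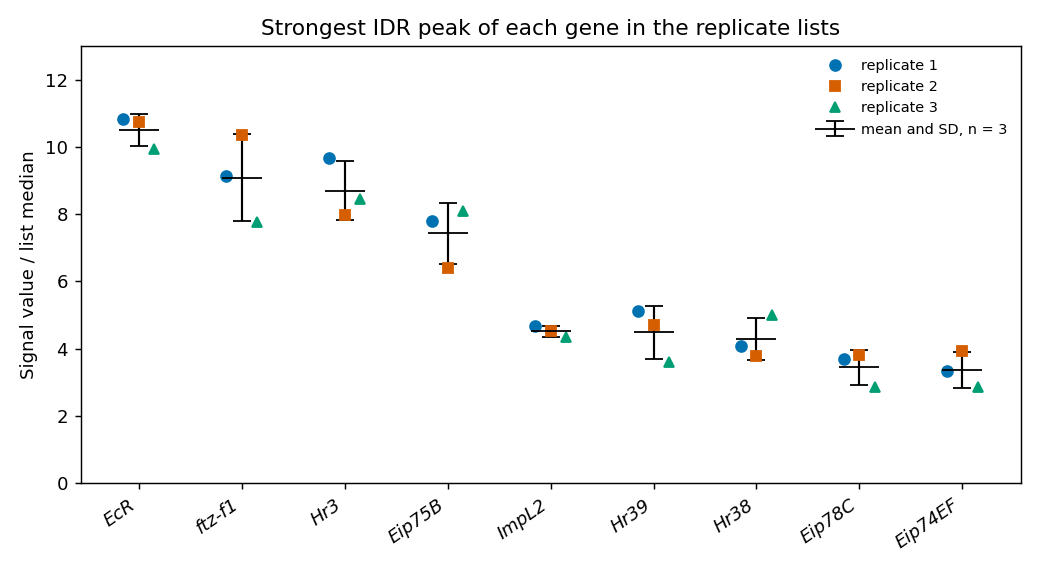
Strength of the strongest IDR peak of each bound gene (vertical axis, signal value over list median) in the 3 replicate lists (points), with the mean (long bar) and SD (error bars, n = 3). EcR, ftz-f1, Hr3 and Eip75B lie between 6.40 and 10.8 in every replicate, and the other 5 genes between 2.85 and 5.13.

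The strongest peaks fell into 2 levels that did not overlap in any replicate, a division made after the values were seen. For EcR, ftz-f1, Hr3 and Eip75B the lowest of 12 values was 6.40, and for ImpL2, Hr39, Hr38, Eip78C and Eip74EF the highest of 15 values was 5.13. Within the upper level, the range of EcR (9.95 to 10.8) overlapped that of ftz-f1 (7.77 to 10.4), which overlapped that of Hr3 (7.98 to 9.67), and this in turn overlapped that of Eip75B (6.40 to 8.08). Within the lower level, each gene overlapped the next. With 3 paired values the smallest p of an exact two-sided permutation test is 0.25, so no order was tested.

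Across all 75 summits strengths were correlated between replicates, but the IDR list itself favours peaks whose ranks repeat between these replicates. The agreement, and the presence of a peak in every list, were thus partly set by the choice of summits. Some neighbouring summits also met the same replicate peak and so carry the same value. Strengths had a Spearman rho of 0.84 between replicates 1 and 2, 0.72 between replicates 1 and 3 and 0.70 between replicates 2 and 3, as a description over summits that share their libraries. In all 3 full replicate lists a peak overlapped each of the 75, and 8003 of all 8143 IDR summits were overlapped likewise. One of the 8143 strongest peaks of every replicate overlapped 61 (81.3%), against 72.8% of all IDR summits. Overlap was judged on the whole interval, so a summit could be credited with the peak of a close neighbour. The EcR summit of rank 7655 counted in all 3, for example, though the peaks nearest to it ranked 12141, 11530 and 14690. Close neighbours were more frequent at these genes than over the list, as given above, and the shares were not corrected for this. Of the rest, 10 were met in 2 replicates, 3 in 1 and 1 in none. The 14 summits short of all 3 replicates lay in Eip75B (7 of 26), Eip74EF (3 of 7), EcR (2 of 12) and ImpL2 (2 of 5).

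Words were sought on both strands within 50 bp of each summit, and the shares are given as descriptions, without a test of the differences. GAGAG was at 30 of the 75 summits (40.0%), in 8 of the 9 bound genes, against 19.0% of all IDR summits. Counting every match, overlapping ones included, it occurred 8.45 times per kb at these summits, 2.32 times per kb over the whole windows of the 10 genes, 3.32 times per kb at all IDR summits and 1.57 times per kb over the chromosome arms. In 1 Eip75B summit, 4278 bp downstream of the Eip75B-RC start, it matched at 8 positions. Hr39 was the bound gene without it.

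Words of nuclear receptors were more frequent at these summits than at all IDR summits, but at few places. AGGTCA was at 9 summits (12.0%), in EcR, Eip74EF, Eip75B and ftz-f1, against 1.84% of all IDR summits. Its density was 1.19 per kb at these summits, 0.336 per kb over the windows, 0.184 per kb at all IDR summits and 0.290 per kb over the arms. CAAGGTCA occurred 0.396 times per kb at these summits, 0.0436 over the windows and 0.0146 at all IDR summits. AAAGGTCA, the element of Hr38, which also contains AGGTCA, was at 1 summit, in EcR, or 1.33%, against 0.233%. AGGTCA followed by its inverse with 1 base between them, the arrangement for the pair of EcR and usp, was at 0 of the 75 and at 0 of the 8143 summits. This exact repeat is so rare, with 0 matches over the windows of the 10 genes and 2 over all chromosome arms, that the absence at summits carries no information.

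Words of abd-A itself and its partners were rare. TAATTA, a homeodomain core, was at 1 summit (1.33%), in ImpL2, against 5.15% of all IDR summits. TGATNNAT, a joint site of Hox proteins and their partner exd, was at 2 summits (2.67%) against 4.35%, and TGACAG, the element of the partner hth, was at none against 4.06%. CAGGTA, the core of the element of Zelda, was at 1 (1.33%) against 1.39%. The density of TAATTA was 0.132 per kb at these summits and 0.743 per kb over the windows of the same genes. G and C made up 45.5% of bases at these summits on average and 44.9% at all IDR summits. A match is a stretch of letters and not a measured site, and the absence of one within 101 bp says nothing about the protein.

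**Figure D5:**
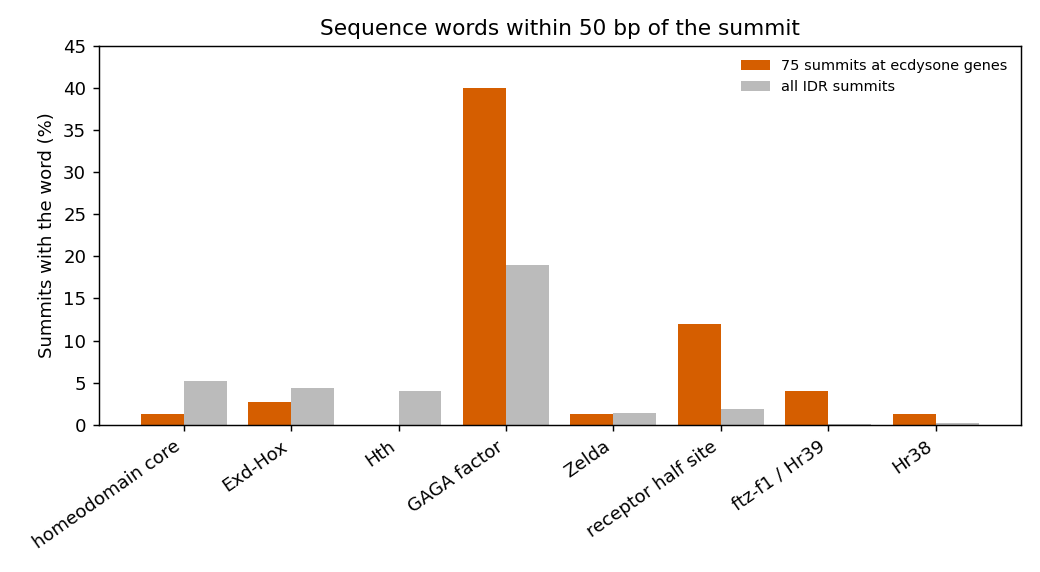
Share of summits (vertical axis, %) with each sequence word within 50 bp on either strand, for the 75 summits at the ecdysone genes (orange) and all 8143 IDR summits (grey). The GAGA factor word stands at 40.0% against 19.0%, and the homeodomain core at 1.33% against 5.15%.

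Other genes of the pathway were taken from lists of known function. Among receptor partners and coregulators 4 of 8 were bound, against 26.5% of all coding genes. Of these 8 genes 3 were in the longest 10% of windows, where 76.8% of coding genes were bound, and all 3 were bound, as was 1 of the 5 shorter ones. The corepressor gene Smr had 12 IDR summits with a best rank of 157, the coactivator gene tai had 8, and Nup98-96 and bon had 1 each. The partner gene usp had no IDR summit and 5 pooled ones. So the pair of genes that make up the receptor differed, EcR with 12 IDR summits in 85.2 kb and usp with 0 in 7.51 kb, windows of very unequal length.

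Among other response genes 10 of 20 were bound, against 26.5% of all coding genes, but 8 of the 20 were in the longest 10% of windows. br, an early gene of zinc-finger proteins, had 6 summits, of which the best ranked 25. The early-late nuclear receptor gene Hr4 had 12, Eip63E had 13, and the zinc-finger genes Kr-h1 and crol had 11 and 7. Kr-h1 had its 11 summits in 17.9 kb. Edg78E, a cuticle gene, had 4, E23 and Eip63F-1 had 2 each, and vri and MsrA had 1 each. In the longest 10% 7 of 8 response genes were bound, near the 76.8% of that class, and the other 3 bound genes had shorter windows.

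Among genes of hormone synthesis, uptake and turnover 3 of 12 were bound. These were shd, which encodes the enzyme of the last activation step, with 4 summits, Oatp74D, the ecdysone importer, with 3, and Cyp18a1, which inactivates the hormone, with 1. None of nvd, spo, spok, sro, phtm, dib and sad, which act in synthesis before that step, had an IDR or a pooled summit, nor had Ptth or tor, which control it. For the list as a whole, the share of 25.0% was close to the 26.5% of all coding genes. In the longest 10% 1 of 3 was bound, with nvd and spok unbound, against 76.8% of coding genes in that class. Whether reads can be placed at nvd and spok as well as at other long genes was not tested. The other 2 bound genes had shorter windows. Of 11 other nuclear receptor genes 5 were bound, 3 of 3 in the longest 10% and 2 of 8 shorter ones, knrl with 4 summits, Hr51 and Hnf4 with 3 each, and svp and kni with 1 each.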

How the data were processed

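The authors deposited narrowPeak lists on dm6, 1 per replicate, 1 called on all 3 replicates together and 1 thresholded by IDR, per the deposited text records. Neither an aligner or peak caller nor the IDR cut-off is given in the sources used here. The deposited signal value, a score from the peak caller, was used only within a list. The deposited −log10 q-value stood at its ceiling in 93.8% of IDR peaks and was not used.

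Summits were assigned to genes of Ensembl release 115 (FlyBase 6.54) on 6 arms, whose coordinates are those of dm6, with Python 3.11.15, numpy 2.4.6 and pandas 2.3.3. Of the listed symbols 6 were matched to current names. Overlap meant at least 1 bp. The genes, lists and words were chosen with earlier results of these data known. Named were all 10 genes, list genes with an IDR summit, the unbound genes of synthesis and usp, and the genes nearest Eip75B in window length. The distance between neighbouring summits, the density without Eip75B and the genes with at least as many summits as Eip75B were added after values were seen. Counting was tested on simulated data. No test compared conditions, since there was 1 group.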

Additional observations from a re-analysis of the deposited data

How the results depend on the processing

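The number of bound genes was 9 under each alternative but the pooled list, where it was 10. The 75 summits became 48 in the stronger 50% of the IDR list and 198 in the pooled list, and otherwise ranged from 55 to 84. Requiring the other replicates alone gave 62 to 66 summits and 9 bound starts in each case. The 10 bound starts became 5 where the peak interval had to cover the start, and otherwise ranged from 7 to 15. Divided by the median of the strongest 8143 peaks of each replicate, which is 2.28 to 2.38 times the list median, the strongest peaks measured 4.52 for EcR, 3.91 for ftz-f1, 3.74 for Hr3, 3.19 for Eip75B, 1.94 for ImpL2, 1.93 for Hr39, 1.84 for Hr38, 1.48 for Eip78C and 1.45 for Eip74EF, in the same order. With each replicate left out in turn, the strength was 10.3 to 10.8 for EcR, 8.46 to 9.75 for ftz-f1, 8.21 to 9.05 for Hr3, 7.10 to 7.94 for Eip75B, 4.44 to 4.61 for ImpL2, 4.16 to 4.91 for Hr39, 3.94 to 4.54 for Hr38, 3.27 to 3.75 for Eip78C and 3.10 to 3.64 for Eip74EF. No paired analysis was possible because the series holds 1 group. Depth was unknown, so weak binding below the end of a list was not detectable. A summit in an intron was counted for the gene that holds it, and its target was not tested.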
